A study of Mus musculus with 21 samples.

Results

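Neutrophils and mast cells each carry a set of marker transcripts, some of which other cells also make. Here 10 such genes were followed through 21 mouse aortic valve libraries: the neutrophil alarmins and receptors S100a8, S100a9, Csf3r, Cxcr2, Ngp and Ltf, and the mast cell proteases Cpa3, Cma1, Mcpt4 and Tpsb2. They were chosen by gene symbol. The table holds 9 of the 10 among its 20872 genes, 5 neutrophil and 4 mast cell members, and Ltf is not listed in it. The study asked how XCT790, an inverse agonist of the nuclear receptor ERRα, affects the aortic valves of mice with 1 working copy of Notch1, which encodes a receptor that is cut on ligand binding to free a regulator of transcription.

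All 21 libraries came from mice that lacked Terc, the RNA template of telomerase, in generation 2 of that line. The WT group (n = 4) was N1+/+ with healthy valves after control solvent. The other mice were N1+/- (N1het), with healthy valves after solvent (n = 6) or XCT790 (n = 5), and with stenosis, a narrowing of the valve opening, after solvent (n = 3) or XCT790 (n = 3). Injections into the abdomen were given daily for 4 weeks from 4 weeks of age, with XCT790 at 5 mg/kg/day. Groups follow the sample titles. In 6 libraries the field for the agent contradicts the title. It names solvent for 3 libraries titled N1het healthy XCT790 (numbers 1, 2 and 3) and XCT790 for all 3 titled N1het stenosis. The disease state is not in conflict in any of them. Whether libraries of 1 group come from different mice is not stated in the labels, and every p therefore refers only to library-to-library spread, which may be technical.

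Neutrophils are short-lived blood leukocytes that enter inflamed tissue. S100a8 and S100a9 encode the subunits of calprotectin, a calcium-binding complex that fills the neutrophil cytosol, is also made by monocytes, and acts on Tlr4 and Ager once released. Csf3r is the receptor for the growth factor G-CSF, Cxcr2 the receptor for the chemokines Cxcl1 and Cxcl2, and Ngp and Ltf are granule proteins made while neutrophils mature in bone marrow. Mast cells live in connective tissue, and those of mouse connective tissue store the chymases Cma1 and Mcpt4, the tryptase Tpsb2 and the carboxypeptidase Cpa3 bound to proteoglycan in their granules.

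The proximal promoters of 5 members are shown because they set the alarmin pair and the co-varying mast cell genes side by side. Each run is the 250 bases before the annotated start on the gene's own strand, from RefSeq on GRCm38.p6. The positions are chr3:90668821-90669070 (plus strand) for S100a8, chr3:90695722-90695971 (minus) for S100a9, chr3:20242182-20242431 (minus) for Cpa3, chr14:55944676-55944925 (minus) for Cma1 and chr14:56062311-56062560 (minus) for Mcpt4. Capitals mark matches, on either strand, to 4 short motifs that are spelled out after the runs: a GATA core, a TATA box, an ETS core and a C/EBP core.
S100a8: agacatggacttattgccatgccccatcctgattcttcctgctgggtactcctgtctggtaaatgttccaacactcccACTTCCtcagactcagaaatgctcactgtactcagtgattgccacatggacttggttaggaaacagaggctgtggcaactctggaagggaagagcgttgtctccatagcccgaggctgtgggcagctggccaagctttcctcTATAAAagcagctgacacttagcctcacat
S100a9: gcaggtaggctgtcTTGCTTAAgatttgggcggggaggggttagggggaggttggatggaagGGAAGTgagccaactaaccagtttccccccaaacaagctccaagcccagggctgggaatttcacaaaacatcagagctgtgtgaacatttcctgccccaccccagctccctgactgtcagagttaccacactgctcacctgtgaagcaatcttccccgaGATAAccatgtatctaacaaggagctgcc
Cpa3: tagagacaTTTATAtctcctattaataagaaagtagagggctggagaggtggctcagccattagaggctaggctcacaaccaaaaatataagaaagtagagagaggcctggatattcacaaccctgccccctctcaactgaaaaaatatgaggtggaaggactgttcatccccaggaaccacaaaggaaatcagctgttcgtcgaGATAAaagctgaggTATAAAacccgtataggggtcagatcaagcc
Cma1: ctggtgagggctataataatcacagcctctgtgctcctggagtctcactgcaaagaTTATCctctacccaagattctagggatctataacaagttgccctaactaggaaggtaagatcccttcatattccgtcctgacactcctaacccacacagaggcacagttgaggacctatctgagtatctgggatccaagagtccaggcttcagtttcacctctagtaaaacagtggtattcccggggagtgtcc
Mcpt4: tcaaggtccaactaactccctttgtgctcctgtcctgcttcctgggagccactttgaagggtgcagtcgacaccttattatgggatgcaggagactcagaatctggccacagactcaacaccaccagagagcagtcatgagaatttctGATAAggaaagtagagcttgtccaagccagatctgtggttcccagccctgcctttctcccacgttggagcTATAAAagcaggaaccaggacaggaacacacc

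Promoters of 9 of the 10 members were in the RefSeq table, Ltf among them and Tpsb2 not. With 50 bases after the start included, GATAA, the core that GATA factors bind, occurred on either strand in 25.4% of the 32851 mouse promoters listed and in 5 of the 9: the mast cell genes Cpa3 (45 bases before the start), Cma1 (194) and Mcpt4 (102), and the neutrophil genes S100a9 (29) and Ltf (31). The TATA box TATAAA occurred in 13.6% of all promoters and in 4 of the 9, beginning 30 bases before the start of S100a8, 31 before that of Cpa3 and 32 before that of Mcpt4, and at the start itself in S100a9. The ETS core GGAAGT occurred in 23.8% of all and 3 of the 9. The C/EBP core TTNNGCAA occurred in 10.8% of all and 3 of the 9, S100a9, Ngp and Ltf. S100a8 and S100a9 are neighbours on chromosome 3 with 0 protein-coding genes between them. Cma1 and Mcpt4 lie on chromosome 14 with 4 others between them, Cma2, Mcpt1, Mcpt2 and Mcpt9. A match of letters describes the sequence and does not show that a factor binds.

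Libraries held 8420000 to 27270000 reads (median 13660000, all rounded), recovered as whole reads from the steps of the deposited FPKM, the read level scaled to gene length and library depth. In the table, 0 means that no read was listed, and 3 reads, taken as the limit that a count of 0 allows, correspond to 0.284 to 0.921 FPKM of S100a8 and 0.0305 to 0.0987 of the longer Csf3r. These limits cover counting error only. The 6 deepest libraries (over 16000000 reads) also had the lowest shares of mitochondrial reads, 0.058% to 0.521% against 0.851% to 8.399% in the other 15, and included 1 to 2 libraries of each group except N1het stenosis, which had 0.

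Most members were read in only some of the valves. S100a8 had reads in 8 of 21 libraries (170 reads in all), S100a9 in 4 (260), Cxcr2 in 2 (14) and Ngp in 4 (43). Csf3r had reads in 20 libraries (3655), Mcpt4 in 18 (5570), Cpa3 in 14 (2215), Tpsb2 in 14 (2048) and Cma1 in 13 (3622). A mean of 1 FPKM or more over all libraries was required for testing, and 7 of the 9 listed members passed it, while Cxcr2 (mean 0.0998 FPKM) and Ngp (0.110) did not. S100a9 passed only through N1het stenosis, with a group mean of 17.4 FPKM against at most 0.505 in any other group. S100a8 passed mainly through N1het stenosis (6.11) and N1het healthy XCT790 (2.48). The p-values of these genes for stenosis and drug thus follow a filter that the same high libraries let them pass. The per-gene step of Cxcr2 implies a length of 739.8 bases, so its 14 reads are the smallest whole numbers possible and the true count may be a multiple of them.

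Csf3r was the member that rose in stenotic valves. In WT it stood at 2.40, 1.04, 0.559 and 4.28 FPKM. In healthy N1het valves after solvent the 6 libraries ran from 0 through a median of 0.779 to 2.00 FPKM, and in healthy N1het valves after XCT790 the values were 1.49, 0.383, 0.406, 1.46 and 0.649. Both healthy N1het groups thus lay at or under 2.00 FPKM. In stenotic valves Csf3r reached 4.97, 13.5 and 13.8 FPKM after solvent and 1.75, 20.4 and 3.29 after XCT790. All 3 solvent-treated stenotic libraries lay above every healthy library, WT included, while the lowest of the XCT790-treated stenotic libraries (1.75) lay below the highest healthy N1het one.

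Across both agents, Csf3r was higher in the 6 stenotic than in the 11 healthy N1het libraries by 2.21 ± 0.40 (SE) on the log2(FPKM + 1) scale, which understates changes of low genes (limma, Benjamini-Hochberg adjusted p = 0.0171). It was 1 of 7 tested members called there, against 0.374% of the 14966 genes tested, of which 15 rose (0.1%) and 41 fell, and 2 members (Csf3r and S100a9) were at an unadjusted p under 0.05, against 11.5% of tested genes. Without the library N1het stenosis 3 the difference was 2.10 and no longer passed (limma adjusted p = 0.0741), and in the 15 libraries outside the deepest ones it was 1.87 (limma adjusted p = 0.208), where 5 stenotic and 7 healthy N1het libraries remain. With limma's voom on recovered reads Csf3r was again the 1 member called, at 3.51 ± 0.75 (limma adjusted p = 0.0296).

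Within the solvent groups the stenotic valves exceeded the healthy N1het ones in Csf3r by 2.62 ± 0.56 (SE), which missed the threshold over all genes (limma adjusted p = 0.126). Here 0 of 7 members were called by limma and 0 by voom, with 3 at an unadjusted p under 0.05 (Csf3r, S100a8 and S100a9) and 2 by voom, beside 0.0334% of all tested genes called and 9.6% at an unadjusted p under 0.05. Groups that do not overlap, with stenosis higher, were found for 2.72% of tested genes. The authors' deposited table marks Csf3r as changed in this comparison, among 262 of 20872 genes (1.26%), and marks no other listed member in any of its 5 comparisons. Without N1het stenosis XCT790 2, the library with the highest Csf3r, the spread became smaller and the same difference passed (limma adjusted p = 0.0422).

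Against WT, Csf3r in solvent-treated stenotic valves was 1.98 ± 0.61 (SE) higher (limma adjusted p = 0.274). There 0 of 7 members were called by limma or voom, beside 0.0334% of tested genes, and 3 by limma (Csf3r, S100a8 and S100a9) and 2 by voom were at an unadjusted p under 0.05, beside 10.4%. The groups did not overlap, as for 5.05% of tested genes with stenosis higher. After XCT790 the stenotic valves lay 1.80 ± 0.58 above the healthy N1het ones (limma adjusted p = 0.834), and 0.92 without N1het stenosis XCT790 2. In that comparison 0 of 7 members and 0% of tested genes were called, 0 members by voom, and Csf3r was the 1 member at an unadjusted p under 0.05 in both, beside 5.08% of tested genes. Its groups did not overlap, which held with stenosis higher for 2.06% of tested genes. Between stenotic valves with and without XCT790 the Csf3r difference was -0.78 ± 0.65, and in healthy N1het valves 0.04 ± 0.48 (limma adjusted p = 1 in each). The drug's effect on Csf3r was not resolved at this number of libraries.

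**Figure D1:**
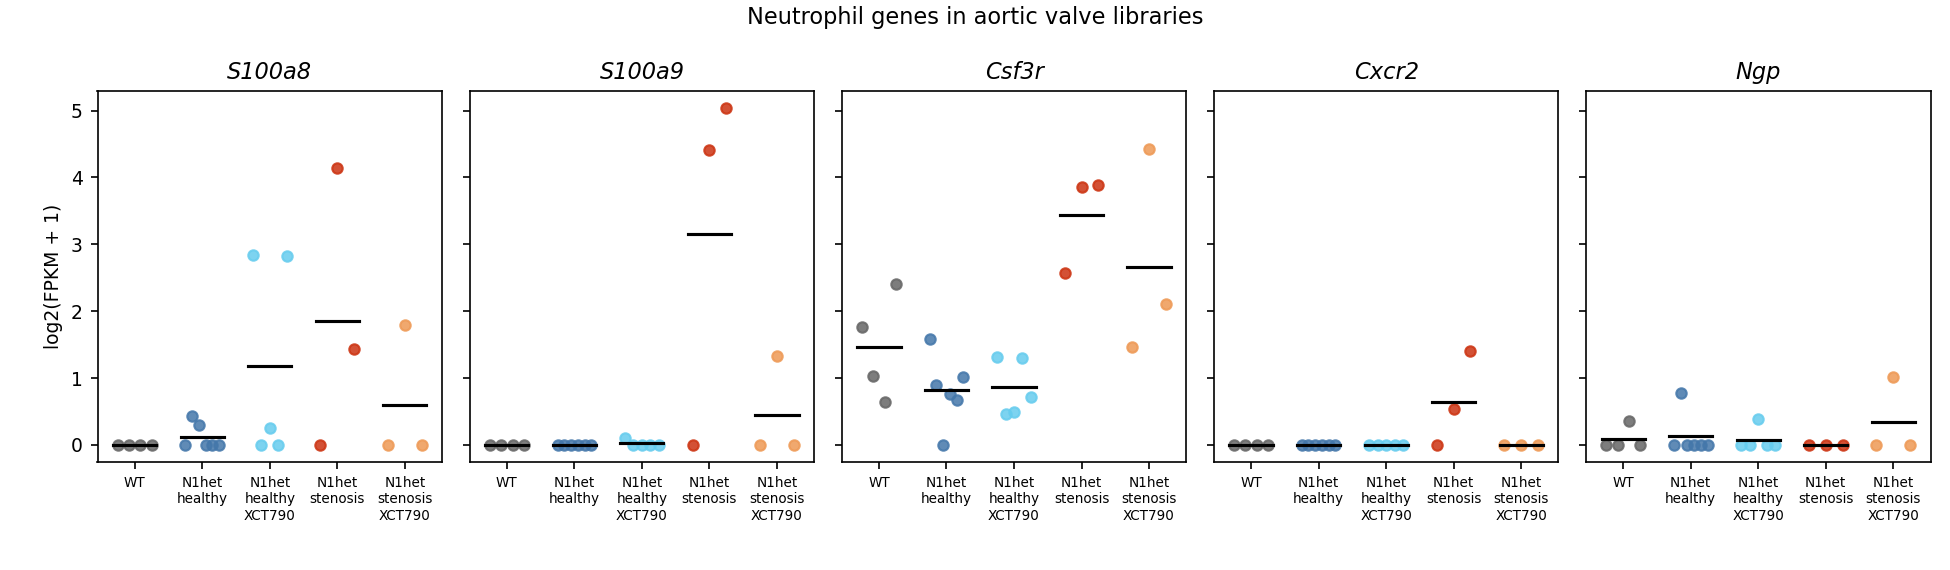
Levels of the 5 listed neutrophil members as log2(FPKM + 1) in each of 21 libraries by group, with black bars for group means. Csf3r is present in nearly every library and highest in stenotic valves, whereas S100a8, S100a9, Cxcr2 and Ngp sit at 0 in most libraries.

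S100a9 was read almost only in stenotic valves, and there in 3 of 6 libraries. It was listed at 0 in all 4 WT and all 6 solvent-treated healthy N1het libraries, and 1 read in N1het healthy XCT790 1 (0.0772 FPKM) was all that the XCT790-treated healthy valves held. Solvent-treated stenotic valves had 0, 20.3 and 31.9 FPKM, from 0, 94 and 151 reads. Stenotic valves after XCT790 had 0, 1.51 and 0 FPKM, with 14 reads in the second. The 2 libraries N1het stenosis 2 and 3 thus held 245 of the 260 reads. Summed over the group and set against a limit of 3 reads over the whole group at 0, S100a9 was at least 237-fold higher in solvent-treated stenotic than in healthy N1het libraries, and at least 122-fold higher than in WT. Each bound is carried by those 2 libraries.

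With all 3 libraries kept, S100a9 did not pass in any comparison. Its fitted difference between solvent-treated stenotic and healthy N1het valves was 3.15 ± 0.71 (SE) on the log2(FPKM + 1) scale (limma adjusted p = 0.129), a value that depends on the added 1 because the healthy group is at 0. Against WT it was also 3.15, with SE 0.77 (limma adjusted p = 0.175), and over both agents 1.79 ± 0.51 (limma adjusted p = 0.147). Without N1het stenosis 1, the stenotic library listed at 0, the first became 4.73 (limma adjusted p = 4e-05), the second 4.73 (limma adjusted p = 0.000109) and the third 2.57 (limma adjusted p = 0.000625). One library therefore decides these calls. The stenotic solvent libraries left without it are those through which S100a9 passed the filter, and the healthy solvent groups are at 0. The p-values without it are thus no support for a difference.

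Between stenotic valves, XCT790 differed from solvent by -2.71 ± 0.82 (SE) in S100a9, which did not pass (unadjusted p = 0.00346, limma adjusted p = 1). In this comparison 0 of 7 members and 0% of all tested genes were called, by limma and by voom for the members, and S100a9 was the 1 member at an unadjusted p under 0.05 with each, beside 3.35% of tested genes. The groups overlap, since both include libraries at 0. Without N1het stenosis 1 the difference was -4.28 and fell under the threshold (limma adjusted p = 0.00128). The p-values without N1het stenosis 1 are no support here either, since the solvent libraries left are those through which S100a9 passed the filter. The interaction of XCT790 with stenosis was -2.73 ± 1.03 for S100a9 (limma adjusted p = 1) and became -4.30 without that library (limma adjusted p = 0.0188). For that interaction 0 of 7 members and 0% of tested genes were called, with 2 members (S100a8 and S100a9) at an unadjusted p under 0.05 in limma and 0 in voom, beside 2.98% of tested genes. By the contradicting agent field the N1het stenosis group would hold no solvent library, so these drug comparisons rest on the titles.

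S100a8, the partner subunit, had reads in all 4 libraries with S100a9 and in 4 more, but not in proportion to it. No read of it was listed in the 4 WT libraries or in 4 of 6 solvent-treated healthy N1het ones, with 0.347 and 0.228 FPKM from 2 reads and 1 read in the other two. Healthy N1het valves after XCT790 had 6.14, 0, 0.189, 0 and 6.05 FPKM, where 59 and 27 reads made up the high values. Those 2 healthy libraries held 1 read and 0 reads of S100a9. Stenotic valves had 0, 16.6 and 1.71 FPKM of S100a8 after solvent (57 reads in the second and 6 in the third) and 0, 2.48 and 0 after XCT790. N1het stenosis 3 thus had the highest S100a9 of all libraries with 6 reads of S100a8.

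The S100a8 difference between solvent-treated stenotic and healthy N1het valves was 1.74 ± 0.77 (SE, unadjusted p = 0.0347, limma adjusted p = 0.471), and over both agents 0.58 ± 0.55 (limma adjusted p = 0.751). Without N1het stenosis 2, the library with the most S100a8, they were 0.60 and 0.0082, and without N1het stenosis 1 they were 2.67 and 1.04, so single libraries carry these values. In healthy N1het valves XCT790 differed from solvent by 1.06 ± 0.66 (limma adjusted p = 1). None of these passed. Across the 21 libraries Pearson's r of log2 levels was 0.60 between S100a8 and S100a9 (Spearman's rho 0.72), 0.72 between S100a9 and Csf3r (rho 0.58) and 0.915 between S100a9 and Cxcr2 (rho 0.74). These values describe libraries of which most are at 0 for S100a8, S100a9 and Cxcr2. The coding sequences of the pair are 64.8% identical over 267 aligned bases (longest reading frames in GENCODE M21).

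Cxcr2 had reads only in the 2 libraries richest in S100a9, at 0.458 FPKM in N1het stenosis 2 and 1.64 in N1het stenosis 3, and was listed at 0 in the other 19. Ngp went elsewhere: it was read in N1het stenosis XCT790 2 (1.02 FPKM), N1het healthy 2 (0.718), WT 3 (0.276) and N1het healthy XCT790 3 (0.301), and was listed at 0 in all 3 solvent-treated stenotic libraries. Neither was tested, being under the limit on the mean.

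Of the other genes of neutrophil granules and effectors none passed between stenotic and healthy valves. Of 26 listed by symbol, 18 were in the table and 5 had enough signal for a test. In the comparison of all stenotic with all healthy N1het valves 0 of those 5 passed in limma (0.374% of tested genes did). An unadjusted p under 0.05 was found for 1 of them, beside 11.5% of tested genes. Over these genes the median log2 difference was 0.81 against 0.002 over all tested genes. The granule gene Camp was at 0, 4.13 and 0 FPKM in the 3 solvent-treated stenotic libraries and at its highest, 9.09, in N1het healthy 6. Retnlg had 1 read in all, in N1het stenosis 2. The surface marker Ly6g was at 0, 0.336 and 1.64 FPKM in the stenotic solvent libraries and highest in N1het healthy 3 (3.42). Other genes of these lists did have reads in the libraries with S100a9, but not the same ones in each. N1het stenosis 2 had 15.8 FPKM of Lcn2. N1het stenosis 3 had 11.15 of Lcn2, 2.40 of the receptor Trem1 and, as the highest of 21 libraries, 9.89 of Mcemp1 and 0.457 of Mmp25. N1het stenosis XCT790 2 had 11.8 of Stfa3 and 5.47 of Trem1. Lcn2 was highest in WT 1 (29.2 FPKM) and Stfa3 in WT 3 (26.4), both libraries with S100a9 listed at 0. Of the 18 listed granule genes, 3 were highest in N1het stenosis 3, 1 in N1het stenosis 2 and 3 in WT 3. The 3 most abundant granule genes, Pglyrp1 (a peptidoglycan-binding protein), Lcn2 (an iron-siderophore binder) and Chi3l1, had group means of 5.67 to 16.3, 3.42 to 11.9 and 2.07 to 6.97 FPKM with wide spread inside groups.

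Genes of the neutrophil surface, most of which monocytes and macrophages share, stood higher in stenosis. Of 22, 21 were listed and 14 tested, 13 of the 14 were higher in all stenotic than in all healthy N1het valves (50.1% of tested genes were), 10 of them at an unadjusted p under 0.05 (6.01% of tested genes), and 0 passed in limma. Their median log2 difference was 0.96, beside 0.002 for all tested genes. The activating Fc receptor Fcgr3 went from 50.5 ± 29.0 FPKM (SD, n = 6) in healthy to 146.1 ± 39.5 (SD, n = 3) in stenotic N1het valves after solvent. Cybb, the catalytic subunit of the phagocyte NADPH oxidase, went from 14.6 ± 4.72 to 41.7 ± 17.0 FPKM, and the complement receptor C5ar1 from 36.8 ± 12.6 to 69.45 ± 20.3. Over both agents the log2 differences were 1.22 ± 0.32 for Fcgr3 (limma adjusted p = 0.107), 0.94 ± 0.33 for Cybb (limma adjusted p = 0.253) and 0.46 ± 0.37 for C5ar1 (limma adjusted p = 0.689).

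Markers of macrophages and monocytes also stood higher in stenosis. All 14 were tested and 14 were higher in all stenotic than in all healthy N1het valves (50.1% of tested genes were), 13 at an unadjusted p under 0.05 (6.01% of tested genes were, and higher), and 2 were called in limma as higher (0.1% of tested genes), the lysozyme genes Lyz1 and Lyz2. Their median log2 difference was 0.97, against 0.002 over all tested genes. Their summed level ran from 3665 to 6669 FPKM in stenotic solvent libraries and 1830 to 8040 in stenotic XCT790 libraries. It ran from 922 to 2161 in healthy N1het solvent libraries, 1192 to 3614 in healthy N1het XCT790 libraries and 1340 to 2222 in WT. By this sum the solvent-treated stenotic libraries lay above all healthy libraries, but by the mean log2 level of the list N1het stenosis 2 (6.28) lay below N1het healthy XCT790 5 (6.33). Pearson's r between Csf3r and the mean of the list was 0.60 over 21 libraries and Spearman's rho 0.35. With platelet markers Csf3r had r 0.67 and rho 0.55, and with the neutrophil surface genes 0.52 and 0.43. In these whole valves more cells of a type and more RNA per cell cannot be told apart, and the part of the macrophage markers in the Csf3r difference was not tested. The summed level of 11 heart muscle markers was 91.5, 4688 and 301.6 FPKM in N1het stenosis 1, 2 and 3. In healthy N1het solvent libraries it ran from 148 to 5239. All 9 tested fibroblast and valve interstitial markers were lower in all stenotic than in all healthy N1het valves. Of these, 4 were called in limma (0.374% of tested genes were, in either direction). N1het stenosis XCT790 3, with the highest macrophage sum, had 3.29 FPKM of Csf3r, while N1het stenosis XCT790 2, at 4877, had 20.4.

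By mean log2 level, platelet markers stood high in 2 of the libraries with S100a9. In N1het stenosis 3 and 2 the mean of the 6 platelet markers ranked 1 and 2 of 21, and in N1het stenosis XCT790 2 it ranked 7. By summed level N1het stenosis 3 had 549.3 FPKM and N1het stenosis 2 had 386.8. WT 1 had 437.6 and N1het stenosis XCT790 3 had 678.9, both with S100a9 listed at 0. Of 5 tested, 1, Gp9, was called in limma as higher in all stenotic valves (0.1% of tested genes were). Pearson's r between S100a9 and the mean of the platelet list was 0.81 and Spearman's rho 0.35. The part of platelet transcripts in the alarmin levels was not tested. The summed level of erythroid markers was 20.1 to 263.0 FPKM in solvent-treated stenotic and 3.77 to 1248.5 in healthy N1het libraries, and with their mean level as a covariate the Csf3r difference stayed called at 2.17 ± 0.41 (limma adjusted p = 0.0151). Keratinocytes also make S100a8 and S100a9, and 2 of 5 listed keratinocyte markers had reads in each solvent-treated stenotic library, with sums of 0.327 to 7.15 FPKM against 0.0815 to 10.4 in healthy N1het libraries.

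**Figure D2:**
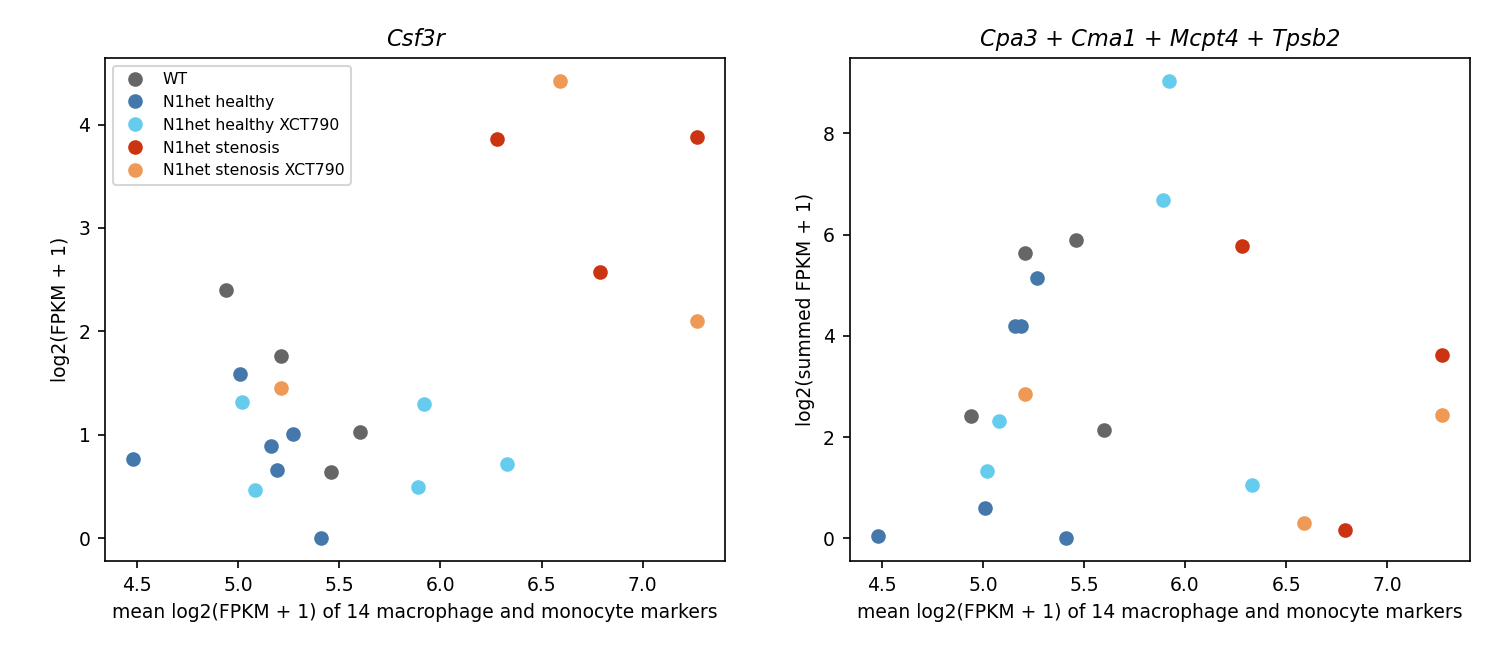
Csf3r (left) and the summed mast cell proteases (right), as log2 of FPKM + 1, against the mean log2(FPKM + 1) of 14 macrophage and monocyte markers, 1 point per library. Most stenotic libraries lie to the right and, for Csf3r, mostly high. N1het stenosis XCT790 1 (5.21) lies among the healthy libraries, and N1het stenosis 2 (6.28) just left of N1het healthy XCT790 5 (6.33). The highest mast cell sums come from libraries in the middle of the macrophage range.

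Some ligands and receptors around these genes were abundant. Of 12 neutrophil ligand and retention genes 10 were listed and 7 tested, and values are given for the most abundant. Cxcl2 and Cxcl1, the ligands of Cxcr2, had means of 298 ± 178 and 84.8 ± 74.0 FPKM (SD, n = 6) in healthy and 513.7 ± 212.5 and 122.3 ± 63.3 (SD, n = 3) in stenotic N1het valves after solvent, and Il1b had 152.7 ± 116.3 and 209.5 ± 113.5. Of 7 tested neutrophil ligands 0 passed in limma for stenosis over both agents (0.374% of tested genes did). At an unadjusted p under 0.05, 2 were higher and 1 lower, beside 11.5% of tested genes in either direction. Among the alarmin receptors and adaptors Bsg, Cd14 and Cd36 were the most abundant. Of 7 tested 0 passed, with 1 higher and 1 lower at an unadjusted p under 0.05, beside the same 11.5%. Hence Cxcr2 ligand transcripts were present in valves where Cxcr2 itself was listed at 0.

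Several other S100 genes had far higher levels per length than the alarmin pair. S100a6, S100a11 and S100a4 had means of 728 ± 189, 699 ± 155 and 483 ± 213 FPKM (SD, n = 6) in healthy N1het valves after solvent. In stenotic valves after solvent they had 1085 ± 168, 614 ± 120 and 1252 ± 70.3 (SD, n = 3). S100a4, made by fibroblasts and leukocytes, differed by 1.14 ± 0.27 over both agents (limma adjusted p = 0.0673). Of 11 tested S100 genes outside the pair 0 passed in limma (0.374% of tested genes did). At an unadjusted p under 0.05, 3 were higher, beside 6.01% of tested genes.

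The mast cell proteases varied widely between valves of the same group, and over all 21 libraries their levels were correlated. With group means removed Pearson's r between pairs was still 0.77 to 0.92, and r inside single groups was not computed. Mcpt4, the most abundant by mean level, stood at 31.9, 0, 34.5 and 1.80 FPKM in WT. In solvent-treated healthy N1het valves it ran from 0 through a median of 4.72 to 20.3 FPKM, and after XCT790 it had 1.51, 0.271, 44.6, 213.4 and 0.703. WT alone spanned nearly the whole range seen in the solvent groups, and N1het healthy XCT790 4 stood apart from all. Stenotic valves had 0.0670, 23.7 and 11.4 FPKM after solvent and 2.22, 0.229 and 0.414 after XCT790.

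Cma1, the other chymase, was at 5.80, 0, 11.8 and 0 FPKM in WT, and from 0 through a median of 1.03 to 6.64 in healthy N1het valves after solvent. After XCT790 healthy N1het valves had 0, 0.0831, 21.2, 170.8 and 0.242 FPKM. Stenotic valves had 0, 18.8 and 0 after solvent and 0.898, 0 and 0.1904 after XCT790. As for Mcpt4, a single library, N1het healthy XCT790 4, held most of the signal: 70.0% of the FPKM of Cma1 summed over 21 libraries and 52.3% of that of Mcpt4.

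Tpsb2, the tryptase, was at 8.63, 1.02, 7.98 and 0 FPKM in WT, and at 0, 3.66, 11.75, 76.0 and 0.0782 in healthy N1het valves after XCT790. Cpa3, the carboxypeptidase, was at 2.40, 2.40, 4.01 and 2.54 FPKM in WT and at 0, 0, 24.5, 64.6 and 0.0597 after XCT790 in healthy N1het valves. Cpa3 was thus the most even of the 4 within WT, and did not follow Mcpt4 there. In stenotic valves after XCT790 Cpa3 was highest in library 3, where Tpsb2 was listed at 0, and Tpsb2 in library 1. In healthy N1het valves after solvent Tpsb2 ran from 0 through 0.449 to 5.98 FPKM and Cpa3 from 0 through 0.208 to 2.69. In stenotic valves Tpsb2 had reads in 1 of 3 libraries after solvent (8.44 FPKM) and 1 of 3 after XCT790 (2.96), and Cpa3 in 2 of 3 of each, with at most 2.95 and 3.803 FPKM.

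**Figure D3:**
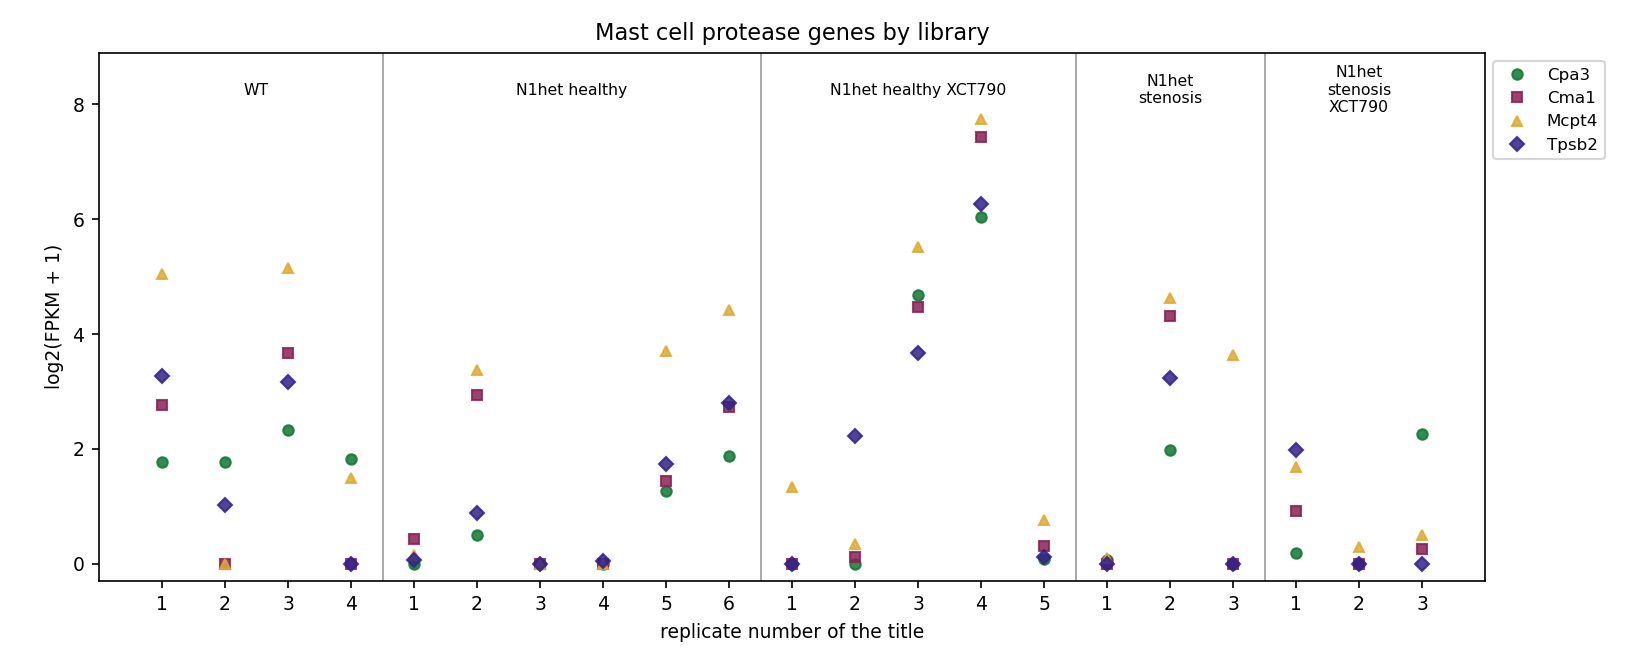
Levels of Cpa3, Cma1, Mcpt4 and Tpsb2 as log2(FPKM + 1) in each of the 21 libraries, ordered by group and by the replicate number of the title. The 4 genes are often high in the same libraries, though not in all, and N1het healthy XCT790 4 is highest for each.

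Summed over the 4 genes, the level was 3.42 to 58.3 FPKM in WT (median 26.5), 0 to 34.6 in healthy N1het valves after solvent (median 8.87) and 1.08 to 524.7 after XCT790 (median 4.015). It was 0.113 to 53.9 in stenotic valves after solvent (median 11.4) and 0.229 to 6.20 after XCT790 (median 4.41). The group medians differed far less than the libraries inside a group. N1het healthy XCT790 4 held 58.7% of the total over all libraries, and with N1het healthy XCT790 3 (102.0 FPKM) 70.1%. All 4 genes had reads in 10 of 21 libraries, and N1het healthy 3 had none of them.

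Mcpt4 was usually the largest part of the sum. In 10 libraries with 100 or more reads of the 4 genes, its share of FPKM ran from 35.7% to 100% with a median of 56.5%, and was the largest in 9. Over the same libraries the share of Cpa3 ran from 0% to 24.0%, of Cma1 from 0% to 38.5% and of Tpsb2 from 0% to 47.7%. Tpsb2 was the largest part in 1 of these 10 libraries, N1het stenosis XCT790 1. These ranges depend on the cut at 100 reads. N1het healthy XCT790 2, just under it with 99 reads, had 91.2% Tpsb2 and 6.75% Mcpt4. In N1het healthy XCT790 4 (8272 reads) the shares were 12.3% Cpa3, 32.6% Cma1, 40.7% Mcpt4 and 14.5% Tpsb2. N1het stenosis 3 differed, with 102 reads of Mcpt4 and none of the other 3 genes. Mcpt4 shares 87.0% of its coding bases with Mcpt1 and 80.5% with Mcpt2, Cma1 71.3% with Mcpt4, and Tpsb2 77.1% with Tpsab1. The sources used here do not give how reads of such similar genes were assigned, and the split between them is uncertain.

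None of the 4 proteases passed in any of 8 comparisons. In healthy N1het valves the differences between XCT790 and solvent were 1.55 ± 0.91 (SE) for Cpa3, 1.21 ± 1.20 for Cma1, 1.20 ± 1.39 for Mcpt4 and 1.53 ± 0.98 for Tpsb2 (limma adjusted p = 1 each). Of the 7 tested members 0 were called by limma or by voom and 0 had an unadjusted p under 0.05 in either, beside 0% called and 2.65% at an unadjusted p under 0.05 of all tested genes. Without N1het healthy XCT790 3 and 4, an alternative chosen after seeing the data, the direction turned, to -0.58 for Cpa3, -1.11 for Cma1, -1.12 for Mcpt4 and -0.15 for Tpsb2. Without N1het healthy XCT790 4 alone Cma1 was at -0.029. The direction of the drug comparison thus rests on 2 libraries, and 1 of them, N1het healthy XCT790 3, carries solvent in the contradicting agent field.

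Stenosis over both agents gave -0.63 ± 0.76 (SE) for Cpa3, -0.95 ± 1.01 for Cma1, -0.73 ± 1.16 for Mcpt4 and -0.82 ± 0.82 for Tpsb2, with limma adjusted p from 0.77 (Tpsb2) to 0.871 (Mcpt4). Without the same 2 libraries these turned to 0.43, 0.22, 0.43 and 0.021. Healthy N1het valves differed from WT by -1.31 ± 0.97 for Cpa3 and by -0.36 to -0.98 for the other 3 genes. In that comparison 0 of 7 members and 0% of all tested genes were called, and 0 members had an unadjusted p under 0.05 in limma and 1 (Cpa3) in voom, beside 7.42% of tested genes in limma. With standard errors this wide, differences of the size seen could not be told from the spread between valves.

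**Figure D4:**
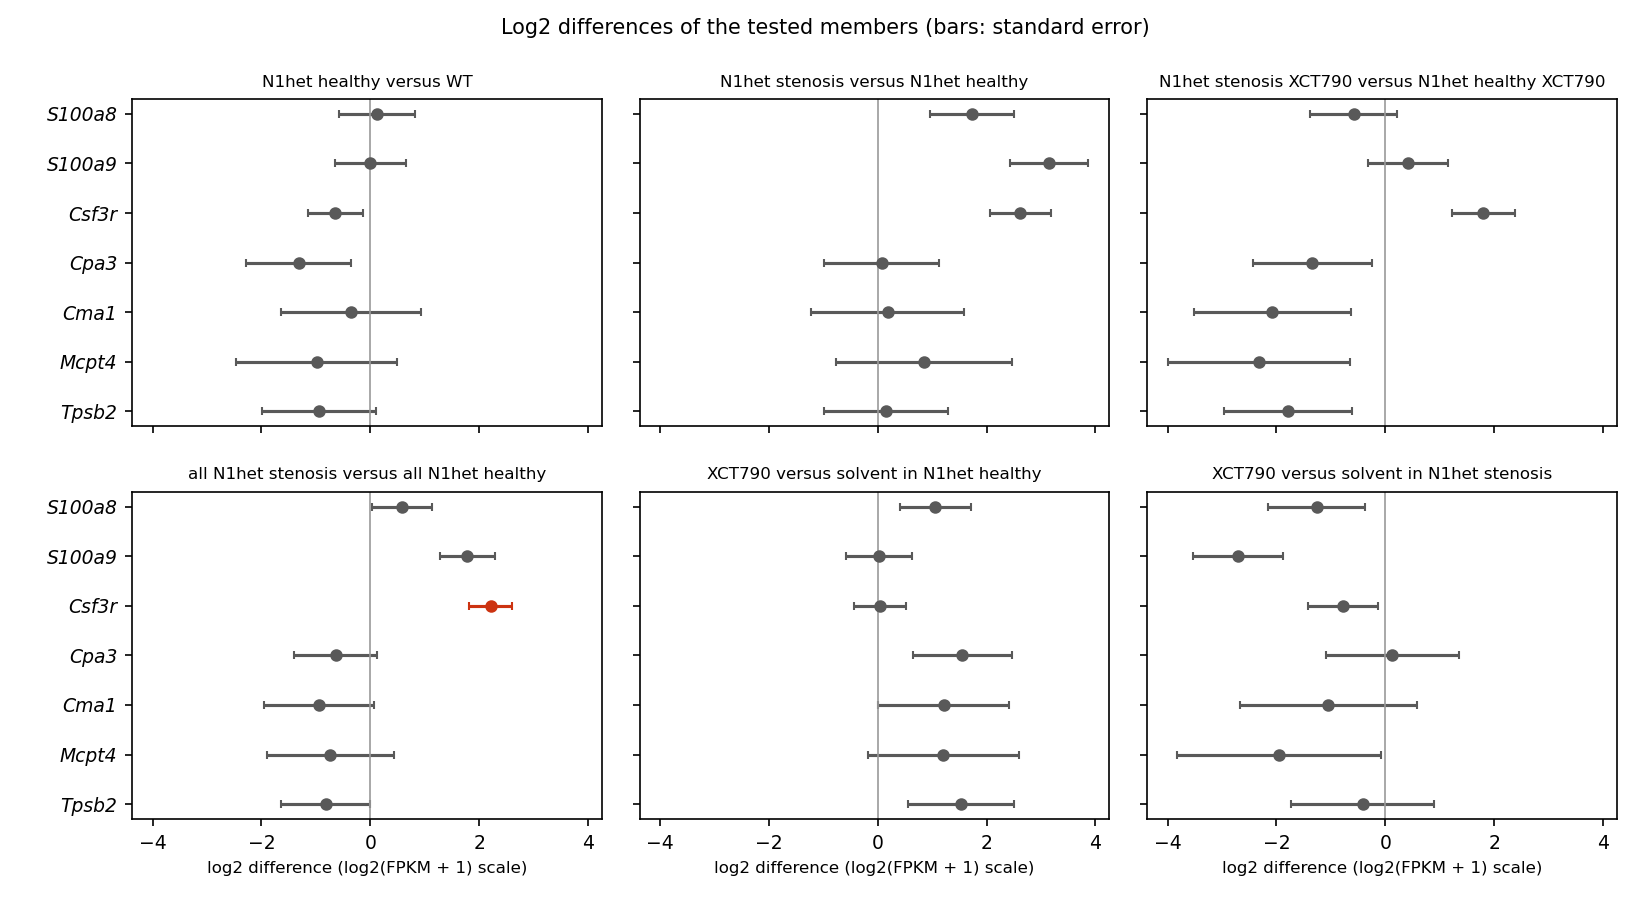
Log2 differences of the 7 tested members on the log2(FPKM + 1) scale in 6 comparisons, with bars for the standard error and red for a limma adjusted p under 0.05. Csf3r in all stenotic against all healthy N1het valves is the 1 red point, and the mast cell genes have the widest bars.

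The spread of the mast cell genes inside groups was among the widest of the transcriptome. The residual SD of log2 levels was 2.47 for Mcpt4, 2.20 for Cma1, 1.80 for Tpsb2 and 1.66 for Cpa3, at percentiles 99.7, 99.4, 98.1 and 97.1 of all tested genes. For S100a8, S100a9 and Csf3r it was 1.12, 1.01 and 0.78, at percentiles 86.6, 80 and 62.5. Among genes of similar mean level, S100a8, S100a9 and Csf3r were at percentiles 66.9, 44.7 and 40.1. There the mast cell genes were at 95 (Cpa3) to 99.7 (Mcpt4). Pearson's r between pairs of the 4 proteases was 0.75 to 0.91 over 21 libraries. With group means removed it was 0.77 to 0.92, and without N1het healthy XCT790 3 and 4 it was 0.55 to 0.86 over 19. Between the proteases and S100a8, S100a9 or Csf3r it was -0.20 to 0.20.

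Of the other mast cell genes, 2 of 12 listed granule genes and 5 of 16 listed surface and regulatory genes had their highest value in the same library, N1het healthy XCT790 4. Some lay below their median there, such as the granule proteoglycan Srgn (62.7 FPKM against a median of 106.7) and Cd63 (190.7 against 220.7), and Enpp3, Mcpt1 and Mcpt2 were listed at 0. In N1het healthy XCT790 4 the high-affinity IgE receptor chain Fcer1a reached 21.3 FPKM, the tryptase Tpsab1 12.7, the secretagogue receptor Mrgprb2 11.8, the chymase Cma2 4.67 and the melanocyte and mast cell factor Mitf 30.8, the highest of any library for each. There the stem cell factor receptor Kit was at 7.80 and histidine decarboxylase, Hdc, at 2.97, each with its highest value in WT 1 instead (24.95 and 3.74). Fcer1a had reads in 7 of 21 libraries and Mrgprb2 in 5. The IgE receptor chain Ms4a2 had 11 reads in all, in N1het healthy XCT790 3 and 4.

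As a list, the other granule genes of mast cells (12 of 14 listed, 7 tested) held Srgn, Hpgds and Serpinb1a as the most abundant, which macrophages and other leukocytes also make. Of the 7, 0 passed in limma for stenosis over both agents (0.374% of tested genes did). At an unadjusted p under 0.05, 1 was higher, beside 6.01% of tested genes, and the median difference was -0.01. Of 17 surface and regulatory genes 16 were listed and 10 tested, with Cd63, Fcer1g and Gata2 most abundant. Of the 10, 0 passed, with 1 higher at an unadjusted p under 0.05, beside the same 6.01%, and a median of -0.06. Of 4 listed basophil genes 1 was tested, Fcer1a, which mast cells share and which carried nearly all of the list's highest sum, 22.7 FPKM in N1het healthy XCT790 4. Prss34 had at most 1.14 FPKM, in the same library. Melanocytes share Kit and Mitf with mast cells, and by the mean log2 level of 5 melanocyte markers N1het healthy XCT790 4 ranked 3 of 21, which was not tested as a source of the signal.

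The growth signals of mast cells were measured as well. Kitl, the ligand of Kit, had means of 27.5 ± 9.75 FPKM in WT (SD, n = 4), 18.4 ± 4.33 in healthy (n = 6) and 11.9 ± 5.51 in stenotic N1het valves (n = 3) after solvent. The cytokine Il33, which activates mast cells through Il1rl1, had 29.5 ± 9.62, 34.0 ± 4.50 and 14.2 ± 6.47. Over both agents the stenotic valves differed by -0.71 ± 0.22 for Kitl (limma adjusted p = 0.174) and -1.20 ± 0.31 for Il33 (limma adjusted p = 0.0948). Of 4 tested ligands 0 passed, with 2 lower and 1 higher at an unadjusted p under 0.05, beside 11.5% of tested genes in either direction. Of 9 tested protease inhibitors 0 passed, with 4 higher at an unadjusted p under 0.05 and a median difference of 0.44, against 6.01% and 0.002 over all tested genes.

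Genes whose levels were most like those of Cpa3 over the 21 libraries were Fcer1a (Pearson's r 0.82), 1200016B10Rik (0.76), Tpsab1 (0.74), Skp1a (0.72) and AC162033.1 (0.69), each with its highest value in N1het healthy XCT790 4. For S100a8 they were SNORA26 (0.76), Sh2d6 (0.74), AC124730.1 (0.73), Gpr132 (0.71) and Tnip2 (0.70), of which 4 had their highest value in N1het stenosis 2, the library with the most S100a8. In both lists a single library weighs heavily on r.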

How the data were processed

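The deposited table gives FPKM per gene and library, computed by the authors, and 0 or 1 marks of genes the authors called changed, per the file headers. Tools named in the submitters' processing notes are HISAT2, SAMtools, Picard and FastQC, and the build is mm9, with no roles or versions. The sources used here do not give the counting program, the annotation or the strandedness. RNA was amplified with a NuGEN Ovation kit, per the labels' protocols.

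FPKM values were whole multiples of a step per gene, and 100.0% of nonzero values came out as whole reads within 0.01 reads. Levels were tested as log2(FPKM + 1) with limma 3.58.1 (R 4.3.3, statmod 1.5.0, trended and robust) in 1 model of 5 group means over 14966 of 20872 genes with a mean of 1 FPKM or more. P-values were adjusted by Benjamini-Hochberg over all tested genes, at 0.05, in 8 comparisons. Library sizes were 8420000 to 27270000 reads, so single-digit counts limit the alarmins. The fit was tested on simulated data for stenosis against healthy N1het after solvent (14966 genes, 200 changed), with changes given as folds of FPKM + 1. Of genes changed 8-fold it called 74.2%, of those changed 4-fold 56.7% and of those changed 2-fold 7.5%, and 8 unchanged genes were called. Simulated log2 values were normal and cut at 0, over genes of all tested levels. These shares therefore do not describe members that sit mostly at 0.

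The members and gene lists were chosen with earlier results of these data known. The text names all members, from each list up to 3 other genes of highest mean FPKM, and for S100a8 and Cpa3 the 5 tested genes of highest Pearson's r. Camp, Retnlg, Ly6g, Trem1, Mcemp1, Mmp25, Stfa3, the called markers and the mast cell genes with values by library were named after their values were seen. Alternatives were another pseudocount, other filters and scalings, only the groups compared, a replicate block, covariates, the 15 less deep libraries, limma's voom on recovered reads, the agent field, and each library left out. Replicate numbers did not pair libraries (mean correlation of deviations 0.01 over 34 same-numbered pairs).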

Additional observations from a re-analysis of the deposited data

Results flagged for a closer look

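Of 24 groups of 4 to 6 libraries tested by Dixon's rule for 1 value far from the rest, 9 held such a value. Groups with all values equal were left out. The rule assumes normal values, whereas FPKM here are skewed with many at 0, so no chance rate is set against this count. A group with 1 value above 0 is flagged whatever that value is. In N1het healthy XCT790 4 these were Cma1 at 170.8 FPKM, Mcpt4 at 213.4, Tpsb2 at 75.96 and the sum of the 4 mast cell genes at 524.7, which are not independent of each other. Cpa3 was flagged in WT 3, at 4.011 FPKM, where the other WT libraries lay close together at 2.40 to 2.54. Ngp stood alone above 0 in its group in WT 3 (0.2761 FPKM), N1het healthy 2 (0.7182) and N1het healthy XCT790 3 (0.3008), and S100a9 in N1het healthy XCT790 1 (0.07718, from 1 read).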

How the results depend on the processing

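Of 694 values of members recomputed under alternatives, 677 kept their direction and their side of the threshold, 9 turned direction, 2 no longer passed and 6 newly passed. The call of Csf3r in all stenotic against all healthy N1het valves was kept in 32 of 34 alternatives (1.77 to 3.51). It was lost in the 15 less deep libraries, where the count of members called was 0, and without N1het stenosis 3. With a mean of 5 FPKM or more required, Csf3r was not tested and the count was also 0. Leaving out 1 library at a time, the count of members called ran from 0 to 2 in that comparison and from 0 to 1 for stenosis against healthy N1het and against WT after solvent, for XCT790 in stenosis and for the interaction. With the replicate block the Csf3r difference was 2.34 (limma adjusted p = 0.0334) and the number of members called was unchanged at 1.

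Without N1het healthy XCT790 3 and 4, an alternative chosen after seeing the data, XCT790 against solvent in healthy N1het valves turned to -0.58 for Cpa3, -1.11 for Cma1, -1.12 for Mcpt4 and -0.15 for Tpsb2, and stenosis over both agents to 0.43, 0.22, 0.43 and 0.021. Leaving out 1 library at a time, the Cma1 difference for XCT790 in healthy N1het valves ran from -0.029 to 1.83. The cause was not tested. With groups by the agent field the stenosis solvent group is empty and its comparisons gave no value. Transcripts with few reads (S100a8, S100a9, Cxcr2, Ngp) are limited by depth.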
